A study of Mus musculus with 8 samples.

Results

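Let-7 is a family of miRNAs found throughout bilaterian animals and known for promoting differentiation and restraining growth. DROSHA cuts each let-7 hairpin out of a longer primary transcript, and DICER then releases a short duplex of 2 arms. One arm, the guide, stays in an Argonaute protein and directs it to mRNAs through its seed, whereas the other arm, the passenger, is mostly discarded. In let-7 hairpins the 5p arm is the guide and the 3p arm the passenger. LIN28 proteins bind let-7 precursors and block their maturation, which concerns both arms of a hairpin, and fibroblasts are rich in mature let-7.

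The values below are those of the 10 listed let-7 3p arms, chosen by their names, among 1966 miRNA names at 2108 loci. Each member has 1 locus, and the same hairpins carry 7 names of 5p arms. The libraries came from NIH 3T3 cells, an immortalised mouse fibroblast line, cultured for 48 h after transfection with 1 of 4 plasmids that express a double-stranded RNA hairpin. CAG-EGFP-MosIR carries an inverted repeat of *Mos* sequence behind an EGFP reporter and the CAG promoter, and CAG-EGFP-Lin28IR the same with *Lin28* sequence. U6-MosIR and U6-Lin28aIR carry shorter *Mos* and *Lin28a* hairpins behind the RNA polymerase III promoter U6, without EGFP. Promoter, reporter, and hairpin form therefore cannot be told apart between U6 and CAG-EGFP libraries. All cultures were transfected with a hairpin plasmid, transient transfection leaves some cells without it, and no library of an untransfected culture was used here. Each plasmid had 2 libraries from separately transfected wells.

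The libraries held 12898619 to 16228597 perfectly mapped reads and 1733203 to 3341065 counts on mature miRNAs. Mature miRNAs made up 10.9% to 16.5% of perfectly mapped reads in the 4 CAG-EGFP libraries and 18.7% to 22.1% in the 4 U6 libraries. The 7 listed fibroblast miRNAs were all detected and summed to 35391–83341 reads per 1000000 perfectly mapped reads (RPM), from 35391 to 56471 RPM with CAG-EGFP and from 68872 to 83341 RPM with U6 plasmids. Most of these counts were those of miR-21a-5p, at a mean of 707302 per library, followed by miR-31-5p at 123970. On the RPM scale 31.1% of the 360 miRNA names tested had every U6 library above every CAG-EGFP library. The separate ranges are thus no result about this list. Of the 5 embryonic stem cell miRNAs, 4 were at 0 in every library (miR-291a-3p, miR-294-3p, miR-302a-3p, and miR-302d-3p) and the list reached at most 0.0710 RPM. The blood, muscle, epithelial, and liver lists reached at most 0.641, 1.77, 2.47, and 0.854 RPM. The neuronal list (miR-124-3p, miR-9-5p, and miR-128-3p), 3 of 3 detected, lay at 144–209 RPM with CAG-EGFP and 238–282 RPM with U6 plasmids. Most of its counts were those of miR-9-5p, at a mean of 2329 per library, and miR-128-3p, at 727. The sum is therefore not read as a sign of neuronal cells, and its separate ranges are likewise no result about the list. These are bulk libraries, in which fewer cells of a type and less RNA per cell cannot be told apart.

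The mature 3p sequences are shown because they decide which members can be counted separately and which share a seed. Bases 2 to 8, the seed, are in capitals. The first 4 share the seed UAUACAA, which only miR-98-3p also has among RefSeq mouse mature miRNAs.
let-7a-1-3p: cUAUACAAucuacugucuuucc
let-7c-2-3p: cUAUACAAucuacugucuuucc
let-7b-3p: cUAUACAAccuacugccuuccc
let-7f-1-3p: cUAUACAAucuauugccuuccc
let-7f-2-3p: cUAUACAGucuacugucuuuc
let-7d-3p: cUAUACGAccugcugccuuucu
let-7e-3p: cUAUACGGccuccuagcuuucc
let-7a-2-3p: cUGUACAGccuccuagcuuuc
let-7c-1-3p: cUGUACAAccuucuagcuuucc
let-7i-3p: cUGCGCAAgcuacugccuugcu

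These sequences are from RefSeq for GRCm38.p6, in which all 10 members were matched at the coordinates of the counts. The other 6 members each had a seed found in no other RefSeq mouse mature miRNA. By contrast, the 7 5p names shared 1 seed, GAGGUAG, which 11 mouse mature names carry, as in the guide printed here for comparison.
let-7a-5p: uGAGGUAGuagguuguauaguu

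The 3p arms were less alike than the 5p arms. Counted from the 5′ end, 10 of 21 positions were the same in all 10 members, against 15 of 22 positions in the 7 5p names. All 10 members began with C, as did 26.0% of 709 mouse 3p arms in RefSeq, and 6 of the 7 5p names began with U. GC content ran from 36.4% in let-7a-1-3p to 59.1% in let-7i-3p. Sequences of let-7a-1-3p and let-7c-2-3p were identical over all 22 bases, and those of let-7e-3p and let-7i-3p matched at 11 of 22. In the lowest-energy fold of each hairpin, the first base of the 5p arm was unpaired and the first base of the 3p arm, a C, was paired with G in all 10 hairpins. This end pairing is a prediction that does not distinguish the abundant members from the scarce ones.

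The 10 members lie in 7 places in the genome (mm10, that is GRCm38; genes from GENCODE M21). On the minus strand of chromosome 13, let-7d-3p (chr13:48536024-48536045), let-7f-1-3p (chr13:48537833-48537854), and let-7a-1-3p (chr13:48538188-48538209) lie in an exon of the lincRNA 6720427I07Rik. On the plus strand of chromosome 15, let-7c-2-3p (chr15:85706664-85706685) and let-7b-3p (chr15:85707379-85707400) lie in an exon of Lncppara. On chromosome 9, let-7a-2-3p (chr9:41536777-41536797) is intronic in 3110039I08Rik, and on chromosome 16 let-7c-1-3p (chr16:77599717-77599738) is intronic in Mir99ahg. An intron of Spaca6 holds let-7e-3p (chr17:17830411-17830432) and an intron of Huwe1 holds let-7f-2-3p (chrX:151912403-151912423), both on the strand of the host gene. On chromosome 10, let-7i-3p (chr10:122985642-122985663) lies in an exon of D630033A02Rik, a transcribed processed pseudogene. Antisense miRNA genes are also annotated over let-7e-3p (Gm25927) and let-7f-1-3p (Gm24111), and whether the counting used strand is not stated.

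The 3p arms ranged from 86.0 RPM to none. The sum of the members, with the identical pair counted once, was 208 ± 37.4 RPM (SD, n = 8 libraries), of which let-7d-3p gave 41.7% ± 4.34 and let-7a-1-3p 32.4% ± 3.68. The 7 5p names summed to 24533 ± 5883 RPM (SD, n = 8). RPM values are counts without mismatches over all perfectly mapped reads, and since the members are 21 or 22 nt long, RPM values are close to levels per length. The paper cautions that sequencing protocols may bias miRNA read counts, which makes RPM an unreliable measure of abundance. Differences between members, or between arms, are therefore differences in reads, and the part of such bias in them was not tested.

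Most abundant was mmu-let-7d-3p, from the chromosome 13 cluster. Its level was 87.6 and 71.0 RPM in the CAG-EGFP-MosIR libraries, 86.5 and 70.5 RPM in those of CAG-EGFP-Lin28IR, 74.7 and 95.2 RPM in those of U6-MosIR, and 104 and 99.3 RPM in those of U6-Lin28aIR. The ranges of U6 and CAG-EGFP libraries overlapped, and the duplicates of 3 plasmids differed by over 15 RPM. Its mean was 86.0 ± 12.9 RPM (SD, n = 8), rank 102 of 1966 names.

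Next came mmu-let-7a-1-3p and mmu-let-7c-2-3p, which are encoded on chromosomes 13 and 15 but have 1 sequence. Their counts differed by at most 0.755% in any library, so they are read as 1 set of reads whose source hairpin cannot be told. The level of let-7a-1-3p was 51.0 and 60.2 RPM in the CAG-EGFP-MosIR duplicates, 47.1 and 53.8 RPM in those of CAG-EGFP-Lin28IR, 74.4 and 85.8 RPM in those of U6-MosIR, and 86.5 and 85.2 RPM in those of U6-Lin28aIR. On this scale every U6 library lay above every CAG-EGFP library. This held for let-7a-1-3p and let-7c-2-3p, 2 of the 9 members detected, against 31.1% of the 360 miRNA names tested, and so is no result about the members.

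The third level was that of mmu-let-7i-3p, from a hairpin with no other let-7 beside it. It was at 23.8 and 17.9 RPM in the CAG-EGFP-MosIR duplicates, 21.4 and 18.1 RPM in those of CAG-EGFP-Lin28IR, 30.1 and 28.2 RPM in those of U6-MosIR, and 22.4 and 39.2 RPM in those of U6-Lin28aIR. The U6-Lin28aIR duplicates enclosed both U6-MosIR values, and the lower of them lay within the CAG-EGFP range. Its spread between duplicates, a CV of 25.6%, was wider than the 12.8% of let-7d-3p and the 8.39% of let-7a-1-3p, and counting alone would give 5.20%.

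A middle group held let-7e-3p at 10.3 ± 2.36 RPM, let-7b-3p at 8.70 ± 2.02 RPM, and let-7f-1-3p at 6.15 ± 1.59 RPM (SD, n = 8 each). The level of let-7e-3p was 10.6 and 11.6 RPM in the CAG-EGFP-MosIR duplicates, 6.98 and 6.72 RPM in those of CAG-EGFP-Lin28IR, 11.6 and 12.3 RPM in those of U6-MosIR, and 9.54 and 12.9 RPM in those of U6-Lin28aIR. The level of let-7b-3p was 6.91 and 4.96 RPM in the CAG-EGFP-Lin28IR libraries and 8.32–10.9 RPM in the other 6. These RPM values are not scaled for the miRNA share of reads, which was 13.6% and 10.9% in the CAG-EGFP-Lin28IR libraries. How many of all names were lowest in those libraries was not counted, so this is no result about the members. The level of let-7f-1-3p ran from 3.20 RPM in CAG-EGFP-Lin28IR replicate 2 to 8.06 RPM in U6-Lin28aIR replicate 1.

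The scarce members were let-7f-2-3p at 2.68 ± 0.682 RPM, let-7a-2-3p at 1.10 ± 0.724 RPM (SD, n = 8 each), and let-7c-1-3p, which had no count. For let-7f-2-3p, 25 to 56 counts per library gave a level from 1.70 RPM in CAG-EGFP-MosIR replicate 2 to 3.71 RPM in U6-Lin28aIR replicate 2. The counts of let-7a-2-3p were 12 and 13 with CAG-EGFP-MosIR, 12 and 8 with CAG-EGFP-Lin28IR, 14 and 15 with U6-MosIR, and 12 and 43 with U6-Lin28aIR. One library, U6-Lin28aIR replicate 2, thus held 43 of the 129 counts, and without it the mean was 0.849 RPM. For let-7c-1-3p, a count of 0 allows a level of up to 0.185 to 0.233 RPM (3 counts per library, counting error only).

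**Figure D1:**
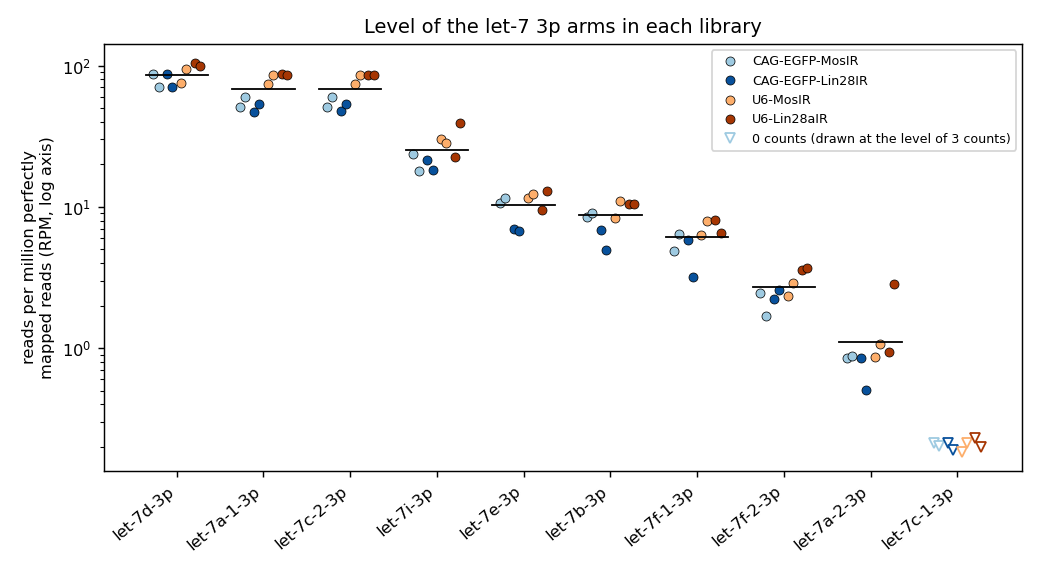
Level of each let-7 3p arm in RPM (log axis), 2 points per plasmid, ordered by the mean over 8 libraries (black line). The members run from let-7d-3p at 86.0 RPM to let-7a-2-3p at 1.10 RPM, and let-7c-1-3p, with 0 counts, is drawn as open triangles at the level of 3 counts.

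The order of the members was alike in all libraries. For 7 of the 9 pairs of neighbours in that order, the first was higher in 8 of 8 libraries. Exceptions were let-7a-1-3p over let-7c-2-3p, higher in 4 of 8, and let-7e-3p over let-7b-3p, higher in 7 of 8. The ranges over libraries were separate between let-7c-2-3p and let-7i-3p, between let-7i-3p and let-7e-3p, and between let-7a-2-3p and let-7c-1-3p; they overlapped for the other 6 pairs, among them let-7d-3p over let-7a-1-3p with a ratio of means of 1.27.

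Some arms encoded side by side differed widely in level. In the chromosome 13 cluster, let-7f-1-3p was at 6.15 RPM and let-7d-3p, on one side of it, at 86.0 RPM. On the other side, 277 bases away, lies let-7a-1, whose 3p name was at 68.0 RPM. On chromosome 15, let-7b-3p was at 8.70 RPM and the shared let-7c-2-3p reads at 68.0 RPM, with 639 bases between the mature arms of these hairpins. The 68.0 RPM on chromosomes 13 and 15 are the same reads. How much came from either place is not known, so neither contrast with them is established. On the X chromosome let-7f-2-3p was at 2.68 RPM and miR-98-3p, of a hairpin 805 bases away, at 10.8 ± 2.22 RPM (SD, n = 8).

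Hairpins of the miR-99, miR-100, and miR-125 families, whose guides are other miRNAs than let-7, accompany 3 members. Beside let-7e-3p, at 10.3 RPM, lie miR-99b-3p at 59.4 ± 12.3 RPM and miR-125a-3p at 33.2 ± 4.17 RPM (SD, n = 8 each). On chromosome 9, let-7a-2-3p at 1.10 RPM stands between miR-100-3p at 3.81 ± 1.45 RPM and miR-125b-1-3p at 143 ± 19.7 RPM (SD, n = 8 each). The arms of miR-100 and miR-125b-1 lie 5284 and 45142 bases from let-7a-2-3p. Around let-7c-1-3p on chromosome 16, everything that can be counted separately was near 0: miR-99a-3p was at 0, miR-99a-5p at 0.0669 RPM, and miR-125b-2-3p at 0.0954 RPM, all below the level of 3 counts in 1 library. There the arms of miR-99a and miR-125b-2 lie 674 and 46540 bases from those of let-7c-1. Of these passenger arms, none of the 5 tested (miR-98-3p, miR-99b-3p, miR-100-3p, miR-125a-3p, and miR-125b-1-3p) passed the threshold for U6 against CAG-EGFP or for Lin28 against Mos, with log2 fold changes from -0.38 to 0.44 and from -0.23 to 0.11.

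The share of a hairpin's counts that fell on its 3p arm also spread over a wide range. Of the hairpins whose arms are both counted alone, let-7d was highest, at 5.64% ± 1.10, followed by let-7b at 1.62% ± 0.463, let-7e at 1.05% ± 0.277, and let-7i at 0.776% ± 0.168 (SD, n = 8 each). With the shared 3p reads credited in full to both, let-7c-2 was at 3.37% ± 0.694 and let-7a-1 at 1.12% ± 0.214, so their place in this order is not known. The hairpins let-7f-1, let-7f-2, and let-7a-2 were at 0.0641% ± 0.0147, 0.0283% ± 0.00993, and 0.0178% ± 0.00907. For let-7d, 17.2 counts fell on the guide for each on the passenger, and for let-7i 129.

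Shares of the let-7a, let-7c, and let-7f hairpins depend on how shared reads are assigned. The 5p arms of let-7a-1 and let-7a-2 are 1 name, as are those of let-7c-1 and let-7c-2 and of let-7f-1 and let-7f-2, so each share takes the whole 5p count, which makes those of let-7f-1, let-7f-2, and let-7a-2 lower bounds. For let-7a-1 and let-7c-2 the shared 3p reads act the other way, and their shares are neither lower nor upper bounds. With the arms joined, the 3p share was 0.862% ± 0.167 for let-7a and let-7c together and 0.0905% ± 0.0211 for let-7f (SD, n = 8 each). The let-7f hairpins, whose guide let-7f-5p was the most abundant of the 7 5p names at 10184 ± 2988 RPM, thus had a lower 3p share than let-7d, let-7b, let-7e, and let-7i in 8 of 8 libraries.

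Seen against other miRNAs, these shares lay on both sides of the median. The let-7d hairpin was well above it, and the let-7f hairpins joined, at 0.0905%, lay below the lower quartile. A mean of at least 100 counts per library on both arms together was found for 155 hairpins. Of these, 93 had fewer counts on the 3p arm, the 10 listed let-7 hairpins among them. The unlisted let-7g hairpin was also among them, 86th by 3p share at 0.0272%. Over the 93 hairpins the median 3p share was 1.62%, with quartiles of 0.416% and 5.99%. The let-7d hairpin was 26th of the 93, between miR-15b-3p at 5.88% and miR-532-3p at 5.22%. The let-7i hairpin was 62nd, between miR-20a-3p at 0.811% and miR-34a-3p at 0.710%. On shares that are lower bounds, let-7f-1, let-7f-2, and let-7a-2 were 82nd, 85th, and 88th, so their true places are not known. Some other hairpins of the 93 also share a 5p name. A 3p share under 1% was found in 5 of the 10 listed let-7 hairpins, beside 36 of the 93 hairpins, 38.7%. Here let-7a-1 and let-7c-2 are each credited with the shared reads, and let-7f-1, let-7f-2, and let-7a-2 stand at lower bounds.

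**Figure D2:**
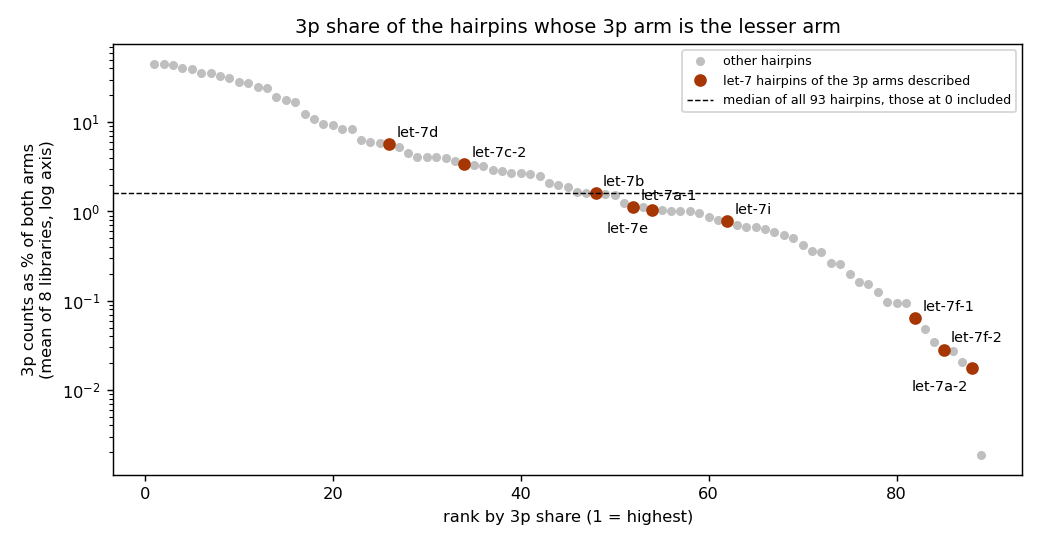
The 3p share of the 93 hairpins with the 3p arm as the lesser arm, in percent of both arms' counts (mean of 8 libraries, log axis), by rank. Listed let-7 hairpins (dark) run from 5.64% for let-7d to 0.0178%, a lower bound, for let-7a-2. The 4 hairpins with no 3p count, let-7c-1 among them, cannot be drawn on the log axis, and let-7g is drawn with the other hairpins.

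Whether guide or passenger arms differed more between duplicate libraries depended on the plasmid. In U6-MosIR the log2 RPM of the 7 5p names differed from replicate 1 to replicate 2 by -0.043 to 0.17 (median 0.018) and that of the 9 detected 3p names by -0.094 to 0.39 (median 0.30), so that the guides were the closer. In CAG-EGFP-Lin28IR the 5p names differed by -0.64 to -0.42 and the 3p names by -0.87 to 0.22, and in U6-Lin28aIR by -0.63 to 0.52 and by -0.30 to 1.61, the last of these being let-7a-2-3p. The widest median difference of the guides, in CAG-EGFP-MosIR, was 0.74. The summed 5p level was 14628 and 28011 RPM in the CAG-EGFP-MosIR libraries, 23467 and 17098 RPM in those of CAG-EGFP-Lin28IR, 26200 and 26856 RPM in those of U6-MosIR, and 28051 and 31957 RPM in those of U6-Lin28aIR. The summed 3p level was 190 and 179 RPM, 178 and 160 RPM, 209 and 244 RPM, and 245 and 260 RPM in the same order.

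Between the CAG-EGFP-MosIR libraries the summed level of the guides differed nearly 2-fold while that of the passengers did not follow. From replicate 1 to replicate 2 the log2 RPM of the 7 5p names differed by 0.67 to 1.08, with a median of 0.74. That of the 9 detected 3p names differed by -0.54 to 0.41, with a median of 0.083, beside a median of 0.14 over all 360 names. The 3p to 5p ratio was lower in replicate 2 for 9 of 9 listed let-7 hairpins with 3p counts, with a median log2 difference of -0.74. Of the 83 hairpins with a lesser 3p arm and at least 10 mean counts on each arm, 47.0% had a lower ratio, median 0.040. In CAG-EGFP-Lin28IR, U6-MosIR, and U6-Lin28aIR the let-7 ratio was lower in replicate 2 for 2, 1, and 3 of 9 hairpins, with medians of 0.20, 0.21, and 0.14, beside 43.4%, 41.0%, and 55.4% of the 83 hairpins, with medians of 0.12, 0.11, and -0.068. These 9 hairpins share reads and guide sequence and are not 9 independent observations, and the duplicates of every plasmid differed by more than counting noise (chi-square per degree of freedom of 47.6 to 198 over 393 names).

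**Figure D3:**
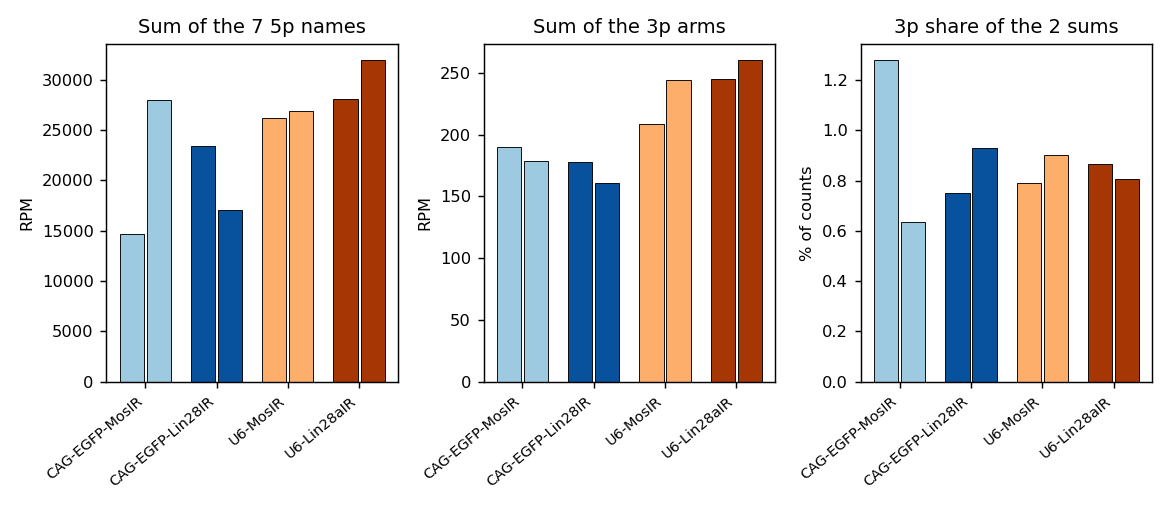
Summed level of the 7 5p names (left) and of the 3p arms (middle) in RPM, and the 3p share of both sums in percent (right), 1 bar per library and 2 per plasmid in the order of replicates. The 5p bars of CAG-EGFP-MosIR stand at 14628 and 28011 RPM while its 3p bars stand at 190 and 179 RPM.

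To ask whether promoter or hairpin changed the passenger arms, the 4 plasmids were fitted together with edgeR (quasi-likelihood test, TMM scaling, Benjamini-Hochberg adjustment over 360 names, threshold 0.05). Of the 10 members, 9 passed the filter on low counts, in which let-7c-1-3p with 0 counts could not take part. None of the 9 passed the threshold in any of the 5 comparisons, nor with DESeq2.

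With U6 against CAG-EGFP plasmids, 0 of 9 members were called, beside 2 of 360 names (0.556%) in the whole table, miR-3535 and miR-5126, which both fell. No member had an unadjusted p under 0.05, and by DESeq2 3 names and no member were called. The median log2 fold change was 0.022 over the 9 members and -0.0023 over all 360 names. The value of let-7a-2-3p was 0.32 (SE 0.37, 95% confidence interval -0.45 to 1.09), which was -0.17 without U6-Lin28aIR replicate 2. For let-7d-3p it was -0.27 (SE 0.14, 95% confidence interval -0.57 to 0.02, edgeR adjusted p = 0.562). For let-7a-1-3p the value was 0.14 (SE 0.14, interval -0.14 to 0.43, adjusted p = 0.802) and for let-7i-3p 0.05 (SE 0.16, interval -0.30 to 0.39, adjusted p = 0.966). No member had all U6 libraries above all CAG-EGFP libraries on the TMM scale, against 2.5% of all names.

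More members were higher with U6 plasmids when the deposited library sizes were used in place of TMM, as most miRNAs did. On that scale 5 of 9 members passed the threshold, all higher with U6, beside 50.3% of the 360 names, and the median of all names moved from -0.0023 to 0.50. The members called were let-7a-1-3p at 0.65 (SE 0.17, edgeR adjusted p = 0.00289), let-7c-2-3p at 0.64, let-7i-3p at 0.56, let-7f-1-3p at 0.51, and let-7b-3p at 0.48. Relative to the median of all names these members lay between -0.027 (let-7b-3p) and 0.14 (let-7a-1-3p). In contrast, let-7d-3p was at 0.23 (SE 0.17, edgeR adjusted p = 0.221), where TMM gave a negative value. It was the lowest of the 9 on both scales, but a change of library sizes moves every name by nearly the same amount. Relative to the median of all names let-7d-3p lay at -0.27 on both. Between the Lin28 plasmids alone, 7 of 9 members were called with deposited sizes, all higher with U6, beside 56.4% of the 360 names. Between the Mos plasmids alone edgeR called 0 of 9 members and 0 names there, with 38 names under an unadjusted p of 0.05, and the interaction called 0 members and 0 names, with 36 names under that p. The summed 3p level was 177 ± 12.1 RPM with CAG-EGFP and 240 ± 21.9 RPM with U6 plasmids (SD, n = 4 libraries of 2 plasmids each), a ratio of 1.36, which became 1.17 per 18–30-nt read and 0.924 per miRNA count. The miRNA share of reads and the fibroblast and neuronal lists were also higher in U6 libraries, as given above, and their part in this difference was not tested.

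**Figure D4:**
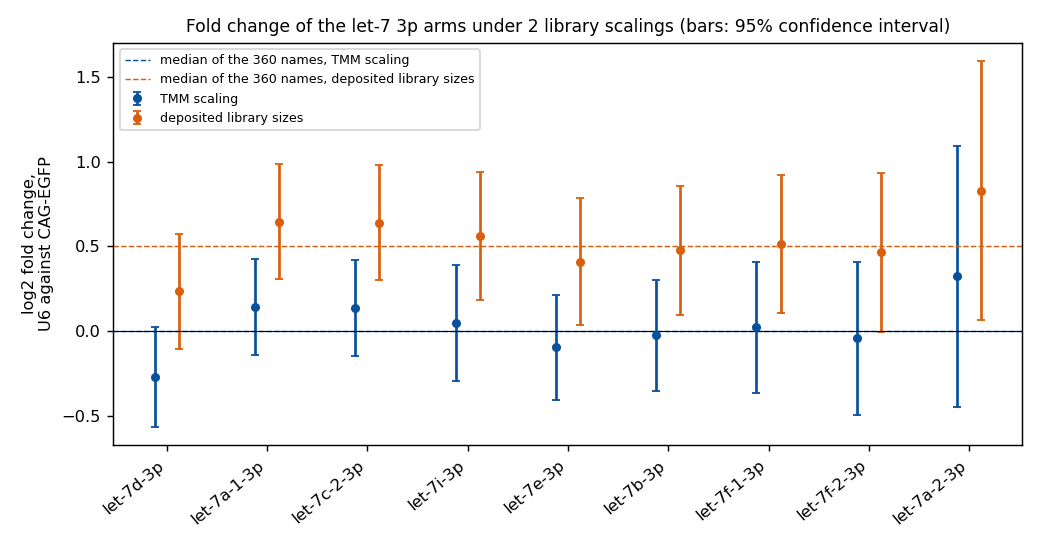
Log2 fold change of the 9 tested let-7 3p arms, U6 against CAG-EGFP, with TMM scaling (blue) and with deposited library sizes (orange); points are edgeR estimates, bars 95% confidence intervals, and dashed lines the medians of all 360 names, -0.0023 and 0.50. Each member shifts up by about the shift of all names, because a change of library sizes moves every name nearly alike. The lowest on both scales is let-7d-3p.

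Neither of the separate promoter comparisons called a member. For U6-Lin28aIR against CAG-EGFP-Lin28IR, 0 of 9 members were called beside 2 of 360 names (0.556%), and members ranged from -0.37 to 0.75 on the log2 scale. For U6-MosIR against CAG-EGFP-MosIR, 0 of 9 members and 0 of 360 names (0%) were called by edgeR, with 18 names under an unadjusted p of 0.05 and 1 name called by DESeq2, and members ranged from -0.18 to 0.27.

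LIN28 is the known brake on let-7 maturation, and the Lin28 plasmids carry sequence of its mRNA, which the Mos plasmids do not. The miRNA counts do not measure LIN28, so whether the cells had it or the plasmids changed its level was not tested. With Lin28 against Mos plasmids, 0 of 9 members and 0 of 360 names (0%) were called by edgeR; 10 names had an unadjusted p under 0.05, and DESeq2 called 0. The median log2 fold change of the members was 0.12 beside 0.043 for all names, with the identical pair let-7a-1-3p and let-7c-2-3p counted as 2 members. With deposited library sizes these medians were -0.015 and -0.085. By edgeR with TMM the only member with an unadjusted p under 0.05 was let-7f-2-3p, at 0.47 (SE 0.22, interval 0.02 to 0.92, edgeR adjusted p = 0.970), on 25 to 56 counts per library. For let-7d-3p the value was 0.25 (SE 0.14, interval -0.04 to 0.55, adjusted p = 0.970), and for let-7e-3p -0.27 (SE 0.15, interval -0.58 to 0.04, adjusted p = 0.970). Which member was under that p depended on the scaling. With deposited library sizes it was let-7e-3p alone, at -0.39 (edgeR unadjusted p = 0.0398), and by DESeq2 it was none. The promoter by hairpin interaction likewise called 0 of 9 members and 0 of 360 names (0%) by edgeR and DESeq2, with 13 names and no member under an unadjusted p of 0.05 by edgeR.

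The ratio of the arms does not depend on how libraries are scaled, so it was tested separately with limma on log2 of the 3p over the 5p count, over 132 hairpins. Of the 9 listed let-7 hairpins tested, 0 were called for U6 against CAG-EGFP, 0 for Lin28 against Mos, and 0 for the interaction. Over all 132 hairpins 0 (0%) were called in each, and 6, 4, and 3 had an unadjusted p under 0.05, no let-7 hairpin among them. With U6 against CAG-EGFP the largest values were those of let-7b at 0.45 (SE 0.25, 95% confidence interval -0.04 to 0.93, limma adjusted p = 0.730) and let-7c-2, on 3p reads shared with let-7a-1, at 0.37 (SE 0.21, interval -0.04 to 0.78), and let-7d was at -0.14 (SE 0.22, interval -0.56 to 0.29). With Lin28 against Mos the 9 hairpins ranged from -0.48 to 0.28. The unlisted let-7g hairpin was at -0.65 (SE 0.39) there and at -0.39 (SE 0.39) with U6 against CAG-EGFP. No let-7 hairpin had separate 3p shares in U6 and CAG-EGFP libraries, against 3.03% of the 132 hairpins. The summed 3p share was 0.899% ± 0.282 with CAG-EGFP and 0.841% ± 0.0518 with U6 plasmids, and it was 1.28% and 0.634% in the CAG-EGFP-MosIR duplicates alone.

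Over the 8 libraries on the TMM scale, the miRNA names whose log2 level ran most like the summed 3p level, among 182 with a mean of at least 10 RPM, were miR-22-3p (Pearson r = 0.861), miR-5121 (0.805), miR-32-5p (0.775), miR-199a-3p (0.763), and miR-199b-3p (0.762). The let-7 guides were not among them. The closest guide was let-7b-5p, with r = 0.379 and rank 39, and let-7f-5p had r = -0.209 and rank 130. These correlations are descriptions over 8 libraries that share scaling and plasmids. The means of miR-199a-3p and miR-199b-3p were 926 and 925 RPM, so these names may be 1 set of reads, which was not examined.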

How the data were processed

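Total RNA of NIH 3T3 cells was made into small RNA libraries with the NEXTflex Small RNA-Seq Kit v3 and sequenced on Illumina. STAR 2.5.3a and the genome build mm10 are listed in the processing notes of the submitters. The authors deposited counts for each mature miRNA locus, not normalized, with up to 0, 1, or 2 mismatches allowed, together with each library's number of mapped reads. The rule by which reads were assigned to miRNAs is not stated.

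From these, RPM values were computed from counts without mismatches and perfectly mapped reads. A name at several loci was counted at its highest locus. In R 4.3.3, edgeR 4.0.16 tested the counts (robust quasi-likelihood, TMM, filterByExpr by plasmid) in 1 fit of 4 plasmids. Arm ratios were tested with limma 3.58.1 on log2((3p + 0.5)/(5p + 0.5)), with a trend on the lesser arm and a mean of at least 10 counts per arm. Alternatives included DESeq2 1.42.0, deposited library sizes, other filters, 1 or 2 mismatches, a replicate block, and leaving out each library. Both fits were tested on simulated data. Folds are from RNAfold 2.7.2. Intervals and limits cover counting error or the spread between wells only. Named miRNAs are the members, their 5p arms, other let-7 family arms, hairpins encoded beside them, the 5 names most like the summed 3p level, and the hairpins next to let-7d and let-7i in order of 3p share; other names outside this rule were named after their values were seen. The members and lists were chosen with earlier results of these data known. Small RNAs of the plasmid hairpins were not analysed here.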

Additional observations from a re-analysis of the deposited data

Results flagged for a closer look

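Among 40 sets of the 4 libraries of a promoter, 5 had a library whose gap to its nearest neighbour passed Dixon's 95% critical value as a share of the range; chance gives such a gap in about 1 of 20 sets, and the sets share libraries and reads. U6-MosIR replicate 1 was the low library among U6 plasmids for the identical pair, at 74.4 RPM against 85.2 to 86.5 RPM for let-7a-1-3p and at 74.2 RPM against 85.2 to 86.1 RPM for let-7c-2-3p. For let-7a-2-3p, U6-Lin28aIR replicate 2 was at 2.85 RPM against 0.863 to 1.06 RPM in the other U6 libraries, and its 3p share was 0.0382% against 0.0128% to 0.0163%. The same arm was low in CAG-EGFP-Lin28IR replicate 2, at 0.502 RPM against 0.845 to 0.883 RPM, on 8 counts.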

How the results depend on the processing

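For U6 against CAG-EGFP and Lin28 against Mos, no member passed the threshold under DESeq2, other filters, mismatches, a replicate block, or any left-out library. For the other comparisons members were examined with TMM, DESeq2, and deposited sizes only. Deposited library sizes called members, 5 of 9 with U6 against CAG-EGFP and 7 of 9 between the Lin28 plasmids alone. With 2 wells per plasmid and 8 to 43 counts for let-7a-2-3p, small differences are not detectable at this depth. The called names with U6 against CAG-EGFP numbered 183 with deposited sizes, 4 without a filter on low counts, and 2 to 11 with a library left out. Between the Lin28 plasmids alone they numbered 204 with deposited sizes, 4 with up to 2 mismatches, and 1 to 13 with a library left out. Between the Mos plasmids alone there was 1 with DESeq2, without a filter, or under a minimum mean of 10 RPM, and 0 to 8 with a library left out. Left-out libraries gave 0 to 3 names for Lin28 against Mos and for the interaction. All these highest counts were those without CAG-EGFP-MosIR replicate 1. They gave 0 to 5 hairpins for the arm ratio with U6 against CAG-EGFP, 5 without CAG-EGFP-MosIR replicate 2, and 0 to 1 for its interaction. The replicate block called 2 names for U6 against CAG-EGFP, as without it. Deviations of same-numbered libraries correlated between -0.15 and 0.18 over pairs of plasmids. Weak correlations cannot show whether same-numbered wells were handled together, and the main fit does not pair them.

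With deposited sizes the sign of U6 against CAG-EGFP turned for let-7b-3p (0.48), let-7d-3p (0.23), let-7e-3p (0.41), and let-7f-2-3p (0.47), and that of Lin28 against Mos for let-7a-1-3p (-0.019) and let-7c-2-3p (-0.015). Without a filter let-7b-3p was at 0.0091. Over left-out libraries, U6 against CAG-EGFP ran from -0.17 to 0.57 for let-7a-2-3p, -0.093 to 0.032 for let-7b-3p, -0.12 to 0.19 for let-7f-1-3p, -0.19 to 0.10 for let-7f-2-3p, and -0.15 to 0.18 for let-7i-3p, and Lin28 against Mos from -0.059 to 0.66 for let-7a-2-3p, -0.23 to 0.12 for let-7f-1-3p, and -0.087 to 0.23 for let-7i-3p. The arm ratio with U6 against CAG-EGFP ran from -0.098 to 0.67 for let-7a-2, -0.39 to 0.12 for let-7d, -0.012 to 0.32 for let-7e, -0.27 to 0.067 for let-7f-1, -0.57 to 0.24 for let-7f-2, and -0.17 to 0.37 for let-7i. The causes were not tested.

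The summed 3p level was 827 per 1000000 18–30-nt reads and 1276 per 1000000 miRNA counts, with log2 ratios of U6 to CAG-EGFP of 0.23 and -0.11 against 0.44 in RPM. The 3p share of let-7 counts was 1.15% with let-7a-1-3p and let-7c-2-3p both counted, against 0.870%. Left-out libraries gave 201 to 215 RPM, log2 ratios of 0.40 to 0.50, and shares of 0.812% to 0.904%.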
